A study of Homo sapiens with 8 samples.

Results

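Gene expression was compared between TOV-21G and SK-OV-3, the ovarian carcinoma lines of a CSE1L silencing study, as both stood after transfection with a scrambled siRNA. The comparison took every array of the 2 control groups, which are 4 of the 8 arrays of the series. TOV-21G given scrambled siRNA (TOV-21G_siCTR, experiments 1 and 2) was set against SK-OV-3 given scrambled siRNA (SK-OV-3_siCTR, experiments 1 and 2). Total RNA of both had been taken 72 h after transfection and hybridised as biotin-labelled cRNA to Illumina bead arrays. The other 4 arrays hold the same lines given CSE1L siRNA in the same experiment numbers (TOV-21G_siCSE1L and SK-OV-3_siCSE1L), and their line difference is set beside the control values below.

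TOV-21G was derived from an ovarian clear cell carcinoma, a histotype that shares much of its expression with clear cell tumours of the kidney and endometrium. SK-OV-3 was grown from the ascites of an ovarian adenocarcinoma and is widely used as a line with an amplified ERBB2 gene, which encodes the receptor HER2. Each is a single established line, so any difference below is one between these lines, not between tumour types. The labels do not say that experiments 1 and 2 were separate cultures, and p-values here measure only the spread between these arrays, which may be technical.

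The control arrays detected between 9206 and 9820 of 24531 probes, where detection means an Illumina detection p below 0.01. Replicate arrays correlated across probes at 0.979 in TOV-21G and 0.980 in SK-OV-3, and arrays of different lines at 0.817 to 0.825. The label of both lines as carcinoma cells was set against marker lists. KRT18, an epithelial keratin, had log2 intensities of 10.04 and 10.06 in TOV-21G, against 10.49 and 10.36 in SK-OV-3, and KRT8, its partner, had 11.53 and 11.69 in TOV-21G, against 13.04 and 12.39 in SK-OV-3. Of 9 epithelial markers on the array, 5 to 6 were detected in TOV-21G and 4 to 5 in SK-OV-3, with a summed deposited signal of 7192 to 8471 in TOV-21G and 17348 to 28257 in SK-OV-3. CDH1 and ST14 of this list were not detected in SK-OV-3, KRT19 was detected on 1 of the 2 TOV-21G arrays, and EPCAM, CLDN4 and MUC1 were not among the tested genes. Of 6 mesothelial markers 3 were detected in TOV-21G and 2 to 3 in SK-OV-3, with a summed signal of 2457 to 2981 in TOV-21G and 1681 to 2041 in SK-OV-3. None of 8 endothelial markers was detected on any control array. Of 11 leukocyte markers on the array, 3 to 4 were detected in TOV-21G and 2 in SK-OV-3, and their summed deposited signal was 2895 to 3092 in TOV-21G and 3139 to 4129 in SK-OV-3. CD74 was higher in TOV-21G (at least 7.40-fold, limma adjusted p = 7.08e-05), CD68 (log2 difference -2.69, adjusted p = 0.000382) and ITGB2 were lower, the ITGB2 call being lost without TOV-21G experiment 1 and without SK-OV-3 experiment 1, and the pan-leukocyte, T cell and B cell markers were not among the tested genes. Of 10 fibroblast markers 3 were detected in TOV-21G and 1 in SK-OV-3, with a summed signal of 3339 to 3431 in TOV-21G and 1582 to 1620 in SK-OV-3. COL1A1, DCN and PDGFRA were higher in TOV-21G, and 1 of these 3 passed without SK-OV-3 experiment 1. The part of these markers in the results was not tested. CSE1L, the gene targeted in the other arrays, had 13.02 and 11.65 in TOV-21G, against 12.04 and 12.56 in SK-OV-3, a difference of 0.04 ± 0.63 (SE, adjusted p = 0.97), and the arrays of the lines overlapped.

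The lines differed at a large share of the genes that the arrays could measure. Intensities were background-corrected and quantile-normalised, and differences are given as TOV-21G minus SK-OV-3 on the log2 scale with the standard error of a limma fit over all arrays of the series. Of 9377 genes tested (8373 named genes and 1004 probes without a symbol), 3166 passed an adjusted p of 0.05, which is 33.8% of those tested. TOV-21G was higher at 1601 genes (17.1%) and lower at 1565 (16.7%), and the median difference of all tested genes was -0.07. At 2441 genes the difference was also at least 2-fold, with 1291 higher and 1150 lower. Among 7755 genes detected on at least 1 array of each line, 995 were higher and 1093 were lower. Over all 9377 genes, both the higher and the lower count fell when any 1 control array was left out, which left 1 array in its group.

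**Figure D1:**
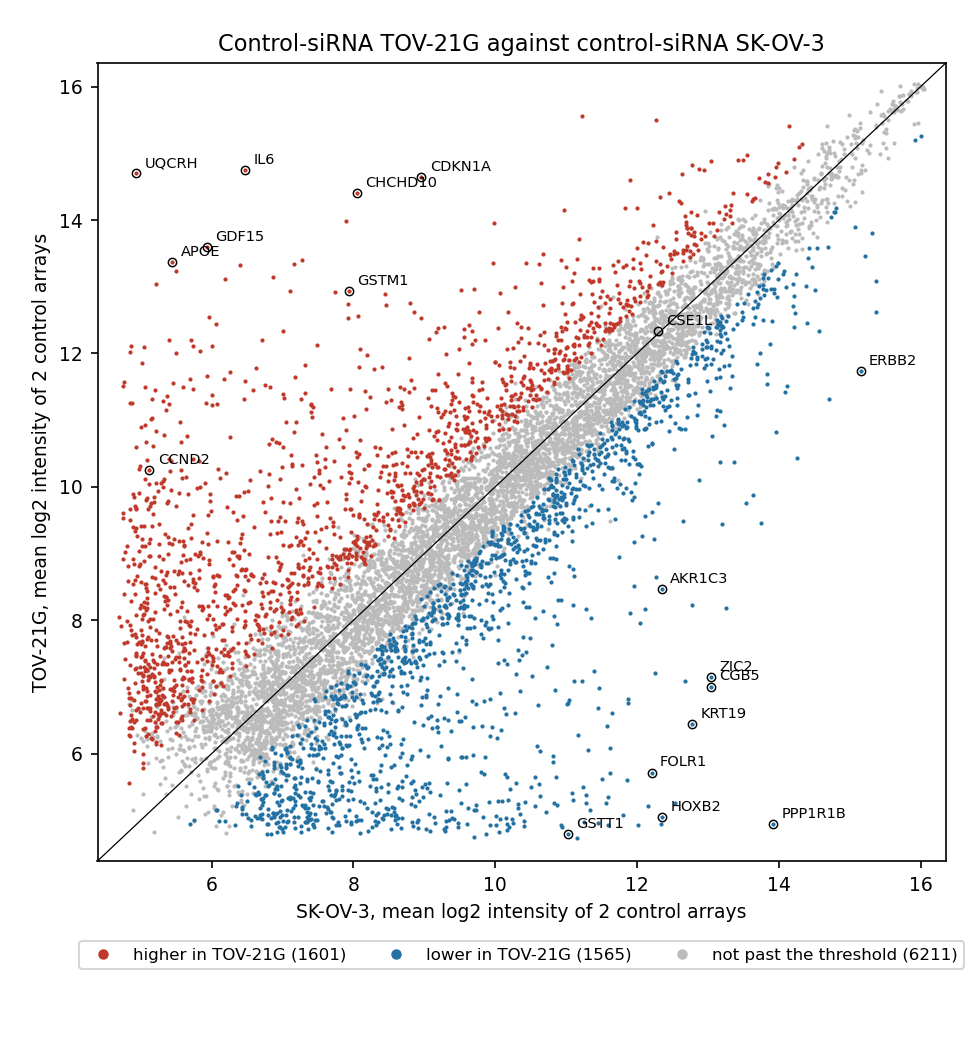
Mean log2 intensity of the 2 control TOV-21G arrays (vertical axis) against the mean of the 2 control SK-OV-3 arrays (horizontal axis), 1 point for each of the 9377 genes tested, with the diagonal marking equal levels. Red points are the 1601 genes higher in TOV-21G and blue points the 1565 genes lower at an adjusted p of 0.05, CSE1L lies on the diagonal, and both groups of coloured points reach down to the lowest intensities of one line.

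Many genes were detected in only one of the lines. A gene was counted as detected in one line only where a probe had a detection p below 0.01 on both arrays of that line and no probe of the gene did on either array of the other. By this rule 546 named genes were detected in TOV-21G only and 363 in SK-OV-3 only, against 6356 detected on all 4 control arrays and 8438 detected on none, out of 16922. A gene that is undetected in one line has no measured fold change, so a lower bound was computed from the lowest signal that counted as detected there. An adjusted p printed beside a bound belongs to the fitted difference and does not test the bound. The bound was at least 10-fold for 72 genes of TOV-21G and 62 of SK-OV-3, and its median was 2.48-fold for TOV-21G-only genes and 2.78-fold for SK-OV-3-only genes. On the CSE1L siRNA arrays, which the rule did not use, 358 of the 546 genes (65.6%) and 265 of the 363 genes (73.0%) were again detected on both arrays of the same line and on neither of the other. Bounds depend on the background correction: over the named genes of these classes they were 1.07 to 2.80 times larger than on the values normalised by the authors in TOV-21G, and 1.17 to 2.95 times larger in SK-OV-3.

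The promoters of 3 such genes and of ERBB2 are shown because they differ in their content of CG dinucleotides, the sites of DNA methylation, which the rule did not use. Each run is the 250 bases before the annotated start on the plus strand, from RefSeq's table for GRCh38.p14, with CG in capitals. GDF15 and APOE were detected in TOV-21G only and TENM3 in SK-OV-3 only, while ERBB2 was detected in both.
GDF15, chr19:18385908-18386157: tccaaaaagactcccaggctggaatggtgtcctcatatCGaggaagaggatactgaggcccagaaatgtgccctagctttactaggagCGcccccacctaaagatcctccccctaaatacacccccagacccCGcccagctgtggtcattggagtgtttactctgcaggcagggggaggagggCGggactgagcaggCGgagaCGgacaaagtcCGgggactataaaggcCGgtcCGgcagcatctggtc
APOE, chr19:44905546-44905795: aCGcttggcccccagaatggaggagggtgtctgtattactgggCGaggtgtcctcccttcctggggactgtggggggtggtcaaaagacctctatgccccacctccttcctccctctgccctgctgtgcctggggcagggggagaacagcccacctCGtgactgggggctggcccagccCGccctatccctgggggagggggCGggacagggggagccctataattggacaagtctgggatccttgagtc
TENM3, chr4:182143713-182143962: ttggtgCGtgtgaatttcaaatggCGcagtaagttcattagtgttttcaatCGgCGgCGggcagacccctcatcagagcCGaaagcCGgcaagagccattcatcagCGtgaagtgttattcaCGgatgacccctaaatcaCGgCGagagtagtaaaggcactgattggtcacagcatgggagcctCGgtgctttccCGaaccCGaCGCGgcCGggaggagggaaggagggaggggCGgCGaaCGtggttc
ERBB2, chr17:39687844-39688093: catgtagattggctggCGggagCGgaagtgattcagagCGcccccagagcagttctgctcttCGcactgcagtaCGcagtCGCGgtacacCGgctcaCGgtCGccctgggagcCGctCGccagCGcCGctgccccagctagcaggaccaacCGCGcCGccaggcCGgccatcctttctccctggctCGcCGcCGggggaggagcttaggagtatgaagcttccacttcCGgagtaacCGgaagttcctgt
The GDF15 promoter held 9 CG sites and an observed over expected CpG ratio of 0.423, and the APOE promoter 5 sites and a ratio of 0.192. TENM3 had 20 sites and a ratio of 1.03, and ERBB2 23 sites and a ratio of 0.856. Among the 3 one-line genes shown, TENM3 has a CpG ratio above that of ERBB2, and GDF15 and APOE have ratios below it.

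In TOV-21G the genes detected with the highest bounds included a cytokine, a mitochondrial subunit, secreted proteins and detoxifying enzymes. IL6, the cytokine that signals through gp130, had log2 intensities of 14.72 and 14.77 in TOV-21G, while its deposited signals in SK-OV-3, 223 and 200.4, were not above background. It was at least 267-fold higher in TOV-21G (adjusted p = 1.09e-05), or at least 95.3-fold on the values normalised by the authors. UQCRH, the hinge subunit of respiratory complex III, had 14.70 and 14.70 in TOV-21G and undetected signals of 141 and 124 in SK-OV-3, a bound of 258-fold (adjusted p = 7.18e-07). GDF15, a stress-induced secreted member of the TGF-beta family, had 13.36 and 13.84 in TOV-21G and undetected signals of 197 and 171 in SK-OV-3, at least 120.5-fold higher (adjusted p = 1.81e-06). APOE, the apolipoprotein of cholesterol transport, was at 13.56 and 13.18 in TOV-21G and undetected in SK-OV-3 at signals of 166 and 156, at least 103-fold higher (adjusted p = 1.31e-06). In each of these 4 genes both TOV-21G arrays stood far above both SK-OV-3 arrays.

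The next genes of this class were MDK, a heparin-binding growth factor (at least 99.3-fold), CCL20, a chemokine (at least 93.6-fold), GSTO2, a glutathione transferase of the omega class (at least 86.7-fold) and MT1E, a metallothionein (at least 82.2-fold). Another MDK probe gave a log2 difference of 3.49. IGFBP2, which binds insulin-like growth factors (at least 57.9-fold), GSTM2 (at least 54.2-fold), RAC2, a small GTPase best known from blood cells (at least 46.0-fold), DMKN (at least 45.6-fold), HOXC6 (at least 43.2-fold), PADI3 (at least 43.0-fold) and the chemokine receptor CXCR4 (at least 42.7-fold) completed the 15 highest. For these 15 genes the largest adjusted p was 5.03e-05, and their bounds on the values normalised by the authors were 16.6-fold to 95.3-fold.

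In SK-OV-3 the highest bound belonged to PPP1R1B, a dopamine-regulated phosphatase inhibitor, whose gene lies near ERBB2. Its reported probe had 13.61 and 14.23 in SK-OV-3 and undetected signals of 124 and 149.6 in TOV-21G, a bound of 172-fold lower for TOV-21G (adjusted p = 1.31e-06). The 2 other PPP1R1B probes gave log2 differences of -1.83 and -0.67, and the call was lost when the probe with the smallest mean detection p stood for the gene. TENM3, a transmembrane teneurin, had 12.29 and 12.78 in SK-OV-3 and undetected signals of 131 and 179.6 in TOV-21G, at least 66.0-fold lower in TOV-21G (adjusted p = 2.04e-06). FOLR1, the folate receptor alpha that is widely used as an ovarian carcinoma antigen, had 12.91 and 11.50 in SK-OV-3 and undetected signals of 172 and 187 in TOV-21G, at least 52.5-fold lower (adjusted p = 3.06e-05). Its SK-OV-3 arrays differed from each other more than those of TENM3 did, and both stood above the TOV-21G arrays.

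The remaining genes of the 15 were HOXB2 (at least 58.1-fold lower in TOV-21G), APCDD1L (at least 57.4-fold), DPYSL3 (at least 50.4-fold), AMTN (at least 46.1-fold), SH3GL3 (at least 41.2-fold) and PTGIS, the prostacyclin synthase (at least 39.7-fold). They also included HOXB5 (at least 35.0-fold), the collagen gene COL5A1 (at least 34.9-fold), CHCHD5 (at least 34.2-fold), CHST15 (at least 34.1-fold), the germ-cell cyclin CCNA1 (at least 33.5-fold) and the kidney-type cadherin CDH16 (at least 32.3-fold). The largest adjusted p of these 15 was 3.94e-05, and their bounds on the values normalised by the authors were 11.5-fold to 58.3-fold.

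**Figure D2:**
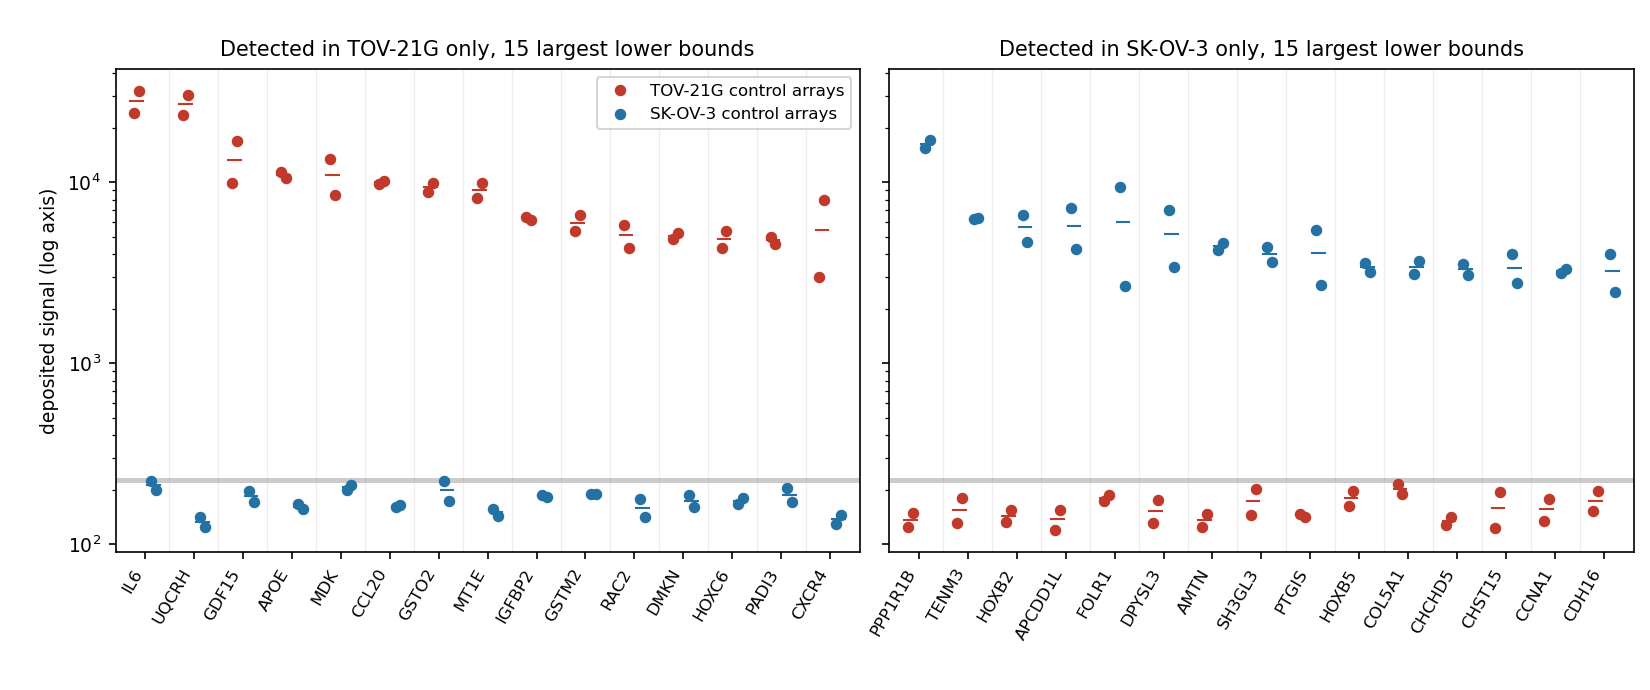
Deposited, non-normalised signals (log axis) of the 15 genes with the largest lower bound among those detected in TOV-21G only (left panel) and in SK-OV-3 only (right panel), with red points for the 2 control TOV-21G arrays, blue points for the 2 control SK-OV-3 arrays, short bars for their means and a grey band over the lowest detected signals of the 4 arrays (219 to 231). Every point of the line without detection lies at or under the band, from IL6 (at least 267-fold) to CXCR4 (at least 42.7-fold) on the left and from PPP1R1B (at least 172-fold) to CDH16 (at least 32.3-fold) on the right.

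Among genes detected on all 4 control arrays, the furthest above SK-OV-3 was CHCHD10, a mitochondrial protein of the intermembrane space. Its log2 intensities were 14.32 and 14.49 in TOV-21G, against 8.69 and 7.42 in SK-OV-3, 81.6-fold higher (log2 difference 6.35 ± 0.50 SE, adjusted p = 5.03e-05). IGFBP4, a further binding protein of insulin-like growth factors, had 13.78 and 13.02 in TOV-21G, against 7.59 and 6.97 in SK-OV-3, 69.4-fold higher (adjusted p = 1.41e-05). ACTA2, the smooth muscle actin, had 12.77 and 13.10 in TOV-21G, against 7.29 and 6.92 in SK-OV-3, 57.1-fold higher (adjusted p = 3.25e-06). The arrays of the lines did not overlap for any of these 3 genes. APBB1IP, an adaptor of integrin activation (77.3-fold), the kinase MAPK13 (36.1-fold) and CITED4, a CBP/p300-interacting protein (28.2-fold), followed the same direction. MICB, a ligand of the NKG2D receptor of natural killer cells, was 22.5-fold higher, and IL27RA, a cytokine receptor subunit, was 21.8-fold higher. Their adjusted p-values, and those of the other genes among the 15 with the largest positive difference, were at most 0.000198.

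Of the genes detected on all 4 arrays and lower in TOV-21G, CGB5, a beta subunit gene of chorionic gonadotropin, stood furthest apart. It had 6.87 and 7.14 in TOV-21G, against 12.80 and 13.29 in SK-OV-3, 65.8-fold lower (log2 difference -6.04 ± 0.26 SE, adjusted p = 2.97e-06). Its near-identical copies in the CGB cluster may share the probe's signal. ZIC2, a zinc finger transcription factor of neural development, had 7.30 and 7.0 in TOV-21G, against 13.14 and 12.94 in SK-OV-3, 59.1-fold lower (adjusted p = 9.95e-06). TAGLN, the actin-binding protein transgelin, had 8.30 and 8.17 in TOV-21G, against 13.16 and 12.40 in SK-OV-3, 23.3-fold lower (adjusted p = 1.66e-05). JAK1, a kinase bound to cytokine receptors that include gp130 and the interferon receptors, had 8.10 and 8.25 in TOV-21G, against 12.09 and 12.12 in SK-OV-3, 15.3-fold lower (adjusted p = 6.45e-06). MYH9, the heavy chain of non-muscle myosin IIA, was at 10.57 and 10.30 in TOV-21G, against 14.22 and 14.30 in SK-OV-3, 14.2-fold lower (adjusted p = 7.16e-06). ACTA2 and TAGLN, which are often used together as smooth muscle markers, differed in opposite directions. Transcription factors with the same direction as ZIC2 were TOX2 (log2 difference -5.05), FOXD1 (-4.14) and LHX1 (-3.90), with adjusted p-values of 2.70e-06, 3.62e-05 and 0.000198.

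**Figure D3:**
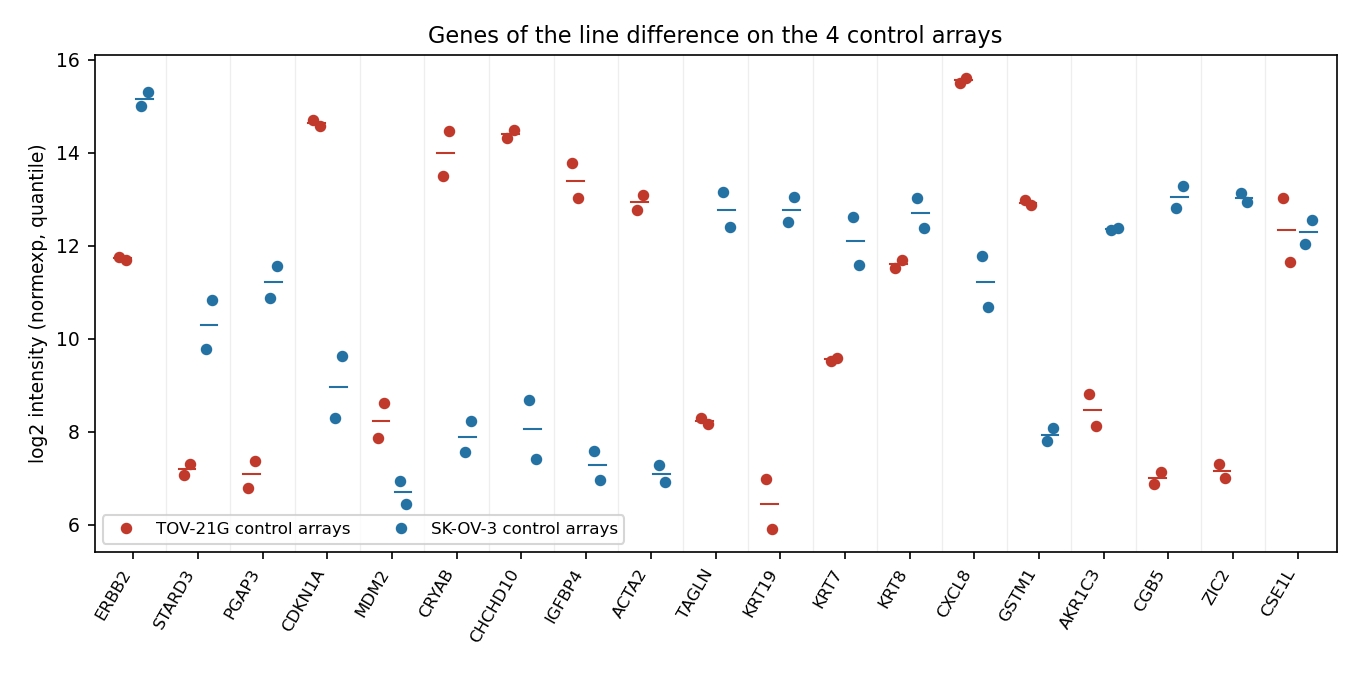
Log2 intensity after background correction and quantile normalisation (vertical axis) of 19 genes on each control array, with red points and bars for the 2 TOV-21G arrays and their mean and blue points and bars for the 2 SK-OV-3 arrays and their mean. ERBB2, STARD3 and PGAP3 are lower in TOV-21G, CDKN1A, CRYAB, CHCHD10, IGFBP4, ACTA2, CXCL8 and GSTM1 are higher, and the arrays of the lines overlap only for CSE1L.

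ERBB2 and its neighbours on chromosome 17 are commonly amplified together in carcinomas, and the receptor has no ligand of its own and signals as a dimer with other members of the EGFR family. Of 18 genes listed for this region, 12 were tested, 8 were lower in TOV-21G and none was higher, with a median difference of -1.93 (-1.70 with undetected genes at their bound), against 16.7% lower and a median of -0.07 over all genes. ERBB2 itself had 11.76 and 11.70 in TOV-21G, against 14.99 and 15.31 in SK-OV-3, 10.7-fold lower in TOV-21G (log2 difference -3.42 ± 0.22 SE, adjusted p = 1.93e-05). The other 2 ERBB2 probes were not detected well enough to be tested. STARD3, a cholesterol-binding protein of late endosomes, had 7.08 and 7.32 in TOV-21G, against 9.77 and 10.83 in SK-OV-3, 8.58-fold lower (adjusted p = 0.000748). PGAP3, which remodels GPI anchors, had 6.80 and 7.37 in TOV-21G, against 10.88 and 11.57 in SK-OV-3, 17.6-fold lower (adjusted p = 8.33e-05). For all 3 genes the TOV-21G arrays lay below both SK-OV-3 arrays.

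The other genes of the region differed by unlike amounts. The transcription-associated kinase CDK12 had 8.37 and 8.08 in TOV-21G, against 10.01 and 10.35 in SK-OV-3, a difference of -1.95 ± 0.25 (adjusted p = 0.000672). GSDMB, a gasdermin, differed by -2.12 (adjusted p = 0.000898) and THRA, a thyroid hormone receptor, by -2.35 (adjusted p = 8.56e-05, or -1.42 on the values normalised by the authors). GRB7, an adaptor that binds HER2, had 8.89 and 9.14 in TOV-21G, against 7.89 and 10.29 in SK-OV-3, and the arrays overlapped (difference -0.08, adjusted p = 0.944). Its SK-OV-3 arrays disagreed: without SK-OV-3 experiment 1 the difference was -1.26 and passed the test as lower in TOV-21G, and without SK-OV-3 experiment 2 it was 1.12 and passed as higher. RPL19, MED24, PSMD3 and IKZF3, which lie between or beside these genes, did not pass the test. A further MED24 probe, detected on all 4 control arrays, gave -1.42 (adjusted p = 0.0029 over probes). Within the EGFR family, ERBB3 was higher at 8.26 and 8.61 in TOV-21G, against 6.91 and 6.81 in SK-OV-3 (difference 1.57 ± 0.23, adjusted p = 0.00121, or 0.89 on the authors' values), and EGFR itself gave a difference of -0.02 (adjusted p = 0.968). The ligands HBEGF (difference 2.44, adjusted p = 0.00121) and EREG (at least 5.87-fold, detected in TOV-21G only) were higher, and the ligand BTC was lower (difference -1.73, adjusted p = 0.00146, or -1.08 on the authors' values). Of the 7 tested members of the family list, which leaves out ERBB2, 4 were higher in TOV-21G and 1 was lower. ERBB2 was a further lower member, and over all genes 17.1% were higher and 16.7% lower.

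Genes that p53 activates code for cell cycle inhibitors, death effectors, DNA repair factors and secreted stress signals. Of 30 such genes on the array 18 were tested, 13 were higher in TOV-21G and none was lower, against 17.1% higher and 16.7% lower over all genes, with a median difference of 1.53 (1.35 with undetected genes at their bound). The count was 8 without TOV-21G experiment 2 and 8 without SK-OV-3 experiment 1. CDKN1A, the cyclin-dependent kinase inhibitor p21, had 14.71 and 14.57 in TOV-21G, against 8.29 and 9.62 in SK-OV-3, 51.4-fold higher in TOV-21G (log2 difference 5.68 ± 0.51 SE, adjusted p = 9.79e-05). Another CDKN1A probe gave a log2 difference of 3.37. TP53I3, a quinone oxidoreductase, had 12.28 and 12.13 in TOV-21G, against 9.55 and 9.89 in SK-OV-3, 5.60-fold higher (adjusted p = 7.53e-05). Neither gene's arrays overlapped between the lines. The nuclease AEN (1.89, adjusted p = 0.00394) and the DNA damage sensor XPC (1.33, adjusted p = 0.00162) were also higher, as were the secreted GDF15 given above and SPATA18, a mitochondrial quality control gene detected in TOV-21G only (at least 8.52-fold). MDM2, the ubiquitin ligase that degrades p53, had 7.86 and 8.62 in TOV-21G, against 6.94 and 6.46 in SK-OV-3 (difference 1.54, adjusted p = 0.0154), and that call was lost without TOV-21G experiment 2 and without SK-OV-3 experiment 2. The MDM2 difference was 0.82 on the values normalised by the authors, and MDM2 was not detected on every control array.

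Genes known as markers of ovarian clear cell carcinoma were mostly higher in TOV-21G. Of 15 tested members 12 were higher and 1 was lower, against 17.1% and 16.7% of all genes. Their median difference was 3.41 (3.12 at the bounds). Among them 5 were detected in TOV-21G only, and 5 were higher where detection on all 4 control arrays was required. CRYAB, a small heat shock protein, had 13.51 and 14.47 in TOV-21G, against 7.57 and 8.23 in SK-OV-3, 68.1-fold higher (adjusted p = 0.000198). IL6 belongs to the list. STC2, a secreted glycoprotein (at least 20.3-fold), PLAC8 (at least 24.2-fold), PDZK1IP1, a membrane protein of kidney tubules (at least 13.4-fold), and GPX3, the secreted glutathione peroxidase (at least 3.49-fold), were detected in TOV-21G only, with adjusted p-values of 9.99e-06, 4.08e-05, 1.87e-05 and 4.26e-05. ADM, the vasodilator adrenomedullin, was the lower member at 9.51 and 9.52 in TOV-21G, against 11.74 and 11.63 in SK-OV-3 (difference -2.17 ± 0.24, adjusted p = 0.000312).

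Lineage factors of the Müllerian tract were split. PAX8, the transcription factor used to recognise tumours of this origin, had 13.22 and 13.46 in TOV-21G, against 13.05 and 13.28 in SK-OV-3, with overlapping arrays and a difference of 0.17 ± 0.23 (adjusted p = 0.616). The other PAX8 probes, also detected on all 4 arrays, gave 0.47 (adjusted p = 0.335 over probes) and 1.52, and the probe at 1.52 passed the test (adjusted p = 0.00257 over probes). SOX17, a partner of PAX8 in ovarian carcinoma lines, was detected in SK-OV-3 only at 10.66 and 11.21 and was at least 21.8-fold lower in TOV-21G (adjusted p = 2.32e-06). MECOM, a zinc finger oncogene, had 11.29 and 11.33 in TOV-21G, against 14.403 and 15.003 in SK-OV-3, 10.5-fold lower (adjusted p = 3.28e-05). SLC34A2, a phosphate transporter and antibody target, was detected in TOV-21G only (at least 1.89-fold, adjusted p = 0.000737). WT1, which is also among the mesothelial markers, was detected in TOV-21G only (at least 4.48-fold). ESR1, the estrogen receptor gene, was detected in SK-OV-3 only (at least 1.57-fold lower in TOV-21G). With FOLR1 counted, 3 of 9 tested genes of this list were higher and 4 were lower, against 17.1% and 16.7% of all genes.

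Liver-type secreted proteins were also higher in TOV-21G at 5 of 6 tested members, and none was lower, against 17.1% and 16.7% of all genes. Of these members 4 were detected in TOV-21G only, and 1 was higher where detection on all 4 control arrays was required. Besides APOE, the complement component C3 was detected in TOV-21G only at 10.56 and 10.08 (at least 12.4-fold, adjusted p = 1.47e-05), as was APOC1 (at least 2.78-fold, adjusted p = 5.71e-05). The fibrinogen chain FGA had 9.86 and 10.08 in TOV-21G, against 7.50 and 6.89 in SK-OV-3, a difference of 2.78 ± 0.30 (adjusted p = 0.000255). Of 25 such genes on the array, 19 were not detected well enough to be tested.

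Keratins and junction genes, both epithelial, differed in opposite directions. Of 10 tested keratins 6 were lower in TOV-21G and none was higher (median -1.55, or -0.90 at the bounds). Of 18 tested junction and polarity genes 12 were higher and 3 were lower (median 1.98, or 1.72 at the bounds). Where detection on all 4 control arrays was required, 2 keratins were lower and none was higher. Under that filter 6 junction and polarity genes were higher and 2 were lower. The shares over all genes were 17.1% higher and 16.7% lower. KRT19, a keratin of simple epithelia, had 6.98 and 5.90 in TOV-21G, against 12.52 and 13.04 in SK-OV-3, 80.9-fold lower on the fitted scale (adjusted p = 9.63e-05), and was detected on 1 of the 2 TOV-21G arrays. KRT7 had 9.52 and 9.60 in TOV-21G, against 12.63 and 11.59 in SK-OV-3, a difference of -2.55 ± 0.34 (adjusted p = 0.000791). KRT8 differed by -1.11 (adjusted p = 0.0125), a call lost without TOV-21G experiment 1 and without SK-OV-3 experiment 1. The basal keratins KRT14 (at least 15-fold lower, adjusted p = 0.000249) and KRT5 (at least 1.61-fold lower, adjusted p = 0.00113) were detected in SK-OV-3 only. KRT18 gave -0.38 (adjusted p = 0.185).

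Among junction genes, the membrane protease ST14 was detected in TOV-21G only at 9.57 and 9.85, with undetected signals of 147 and 143 in SK-OV-3 (at least 8.15-fold higher, adjusted p = 8.71e-06). Its inhibitor SPINT1 had the same pattern at 9.80 and 9.56 (at least 7.96-fold, adjusted p = 9.99e-06). CDH1, which encodes E-cadherin, was detected in TOV-21G only at 7.57 and 7.99, with undetected signals of 137 and 137 in SK-OV-3 (at least 2.14-fold, adjusted p = 5.88e-05). The desmosomal plakophilin PKP2 had 10.43 and 10.73 in TOV-21G, against 8.38 and 8.36 in SK-OV-3 (difference 2.21, adjusted p = 0.000126), and envoplakin, EVPL, was detected in TOV-21G only (at least 3.88-fold). DSC2, a desmosomal cadherin, was the other way, detected in SK-OV-3 only (at least 1.85-fold lower in TOV-21G).

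Mesenchymal genes did not follow a single direction. VIM, the intermediate filament of mesenchymal cells, had 12.33 and 11.85 in TOV-21G, against 11.89 and 12.03 in SK-OV-3 (difference 0.13 ± 0.31, adjusted p = 0.79), and CDH2, N-cadherin, had 8.08 and 7.03 in TOV-21G, against 7.22 and 7.94 in SK-OV-3 (difference -0.03 ± 0.50, adjusted p = 0.975). The transcription factor SNAI2, which represses E-cadherin, was detected in SK-OV-3 only at 11.04 and 10.39, at least 18.7-fold lower in TOV-21G (adjusted p = 1.85e-05). FOXC2, a forkhead factor of the same list, was detected in TOV-21G only (at least 7.43-fold, adjusted p = 0.000199). Of the 11 tested members, 3 were higher in TOV-21G and 4 were lower, against 17.1% and 16.7% of all genes.

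Of 36 tested extracellular matrix genes, 10 were higher in TOV-21G and 10 were lower. Fewer members were higher without TOV-21G experiment 1 or without SK-OV-3 experiment 1. Where detection on all 4 control arrays was required, 5 members were higher and 1 was lower. Members detected in one line only numbered 6 for TOV-21G and 8 for SK-OV-3. The proteoglycan gene BGN was lower at 6.96 and 6.26 in TOV-21G, against 11.36 and 11.94 in SK-OV-3 (difference -5.04, adjusted p = 1.67e-05). BGN was not detected on every control array, so its difference is on the fitted scale. COL6A2 (at least 7.60-fold lower) and the microfibril protein MFAP5 (at least 11.5-fold lower) were detected in SK-OV-3 only, like COL5A1. The matricellular protein CCN1 was higher at 14.87 and 14.89 in TOV-21G, against 13.20 and 12.90 in SK-OV-3 (difference 1.83, adjusted p = 0.00047). Of matrix proteases, PLAU, the urokinase gene, was higher at 14.48 and 13.88 in TOV-21G, against 11.74 and 11.91 in SK-OV-3 (difference 2.36, adjusted p = 0.000909), MMP11 was detected in TOV-21G only (at least 12-fold) and the inhibitor TIMP2 was lower (difference -2.23, adjusted p = 0.000538). None of 11 tested integrins was higher and 5 were lower, among them ITGB4 of hemidesmosomes (difference -1.55, adjusted p = 0.00354). For comparison with the matrix and integrin counts, 17.1% of all genes were higher and 16.7% lower. Without TOV-21G experiment 1, 1 integrin was higher.

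HOX genes, whose clusters set position along the body axis, separated the lines by cluster. Of 17 tested HOX genes 6 were higher in TOV-21G and 6 were lower, against 17.1% and 16.7% of all genes. As many as 10 of these 12 were detected in one line only. All 6 lower genes belong to the HOXB cluster, 5 of the 6 higher genes to HOXC and 1 to HOXD. In the HOXB cluster on chromosome 17, HOXB2 had 12.37 and 12.34 in SK-OV-3 and undetected signals of 132 and 155 in TOV-21G, at least 58.1-fold lower in TOV-21G (adjusted p = 1.31e-06). HOXB5 had 11.47 and 11.77 in SK-OV-3 and undetected signals of 162 and 196 in TOV-21G (at least 35.0-fold lower, adjusted p = 2.24e-06), HOXB4 was at least 13.4-fold lower, HOXB3 at least 5.33-fold and HOXB8 at least 4.12-fold. HOXB7 was detected in both lines at 12.20 and 12.07 in TOV-21G, against 13.76 and 13.99 in SK-OV-3 (difference -1.74 ± 0.20, adjusted p = 0.000403). HOXB6 differed by -0.56 (adjusted p = 0.55). In the HOXC cluster the direction was opposite: HOXC6 had 12.06 and 12.17 in TOV-21G and undetected signals of 167 and 179 in SK-OV-3 (at least 43.2-fold higher, adjusted p = 4.36e-06). HOXC8 had 11.54 and 11.71 in TOV-21G and undetected signals of 193 and 154 in SK-OV-3 (at least 30.7-fold higher, adjusted p = 2.97e-06).

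Cytokines and chemokines differed in both directions: of 18 tested members 11 were higher in TOV-21G and 4 were lower, against 17.1% and 16.7% of all genes (median 1.85, or 1.07 with undetected genes at their bound), and without TOV-21G experiment 1 the count of lower members was 2. Members detected in one line only numbered 9 for TOV-21G and 2 for SK-OV-3. Where detection on all 4 control arrays was required, 2 members were higher and none was lower. CXCL8, the neutrophil chemokine also called interleukin-8, was detected in both lines at 15.50 and 15.61 in TOV-21G, against 11.78 and 10.68 in SK-OV-3, 20.1-fold higher (difference 4.33 ± 0.54 SE, adjusted p = 0.000589). TNF, the cytokine that activates NF-kB, had 12.13 and 11.89 in TOV-21G and undetected signals of 126 and 186 in SK-OV-3 (at least 40.2-fold higher, adjusted p = 1.12e-05). CCL20, the ligand of CCR6, had 13.35 and 13.12 in TOV-21G and undetected signals of 161 and 164 in SK-OV-3 (adjusted p = 2.86e-06). IL32 had 11.22 and 11.71 in TOV-21G (at least 27.6-fold, adjusted p = 2.86e-06), EBI3, a subunit shared by several interleukins, had 11.49 and 11.23 (at least 25.6-fold, adjusted p = 2.24e-06) and the monocyte chemokine CCL2 had 10 and 9.34 (at least 7.93-fold, adjusted p = 0.000212), and none was detected in SK-OV-3.

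Several of these genes are known NF-kB targets, and the promoters of IL6 and IL32 are shown because both hold a match to an NF-kB motif, given in capitals and spelled as GGGA, then any base (N), then TTTCC. Each run is the 250 bases before the annotated start on the plus strand in RefSeq's GRCh38.p14 table, and both strands were searched.
IL6, chr7:22726950-22727199: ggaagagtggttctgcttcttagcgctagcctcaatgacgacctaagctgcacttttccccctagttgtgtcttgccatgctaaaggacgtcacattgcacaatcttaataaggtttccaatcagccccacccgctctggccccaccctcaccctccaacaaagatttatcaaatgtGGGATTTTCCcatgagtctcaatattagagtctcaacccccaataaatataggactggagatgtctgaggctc
IL32, chr16:3065153-3065402: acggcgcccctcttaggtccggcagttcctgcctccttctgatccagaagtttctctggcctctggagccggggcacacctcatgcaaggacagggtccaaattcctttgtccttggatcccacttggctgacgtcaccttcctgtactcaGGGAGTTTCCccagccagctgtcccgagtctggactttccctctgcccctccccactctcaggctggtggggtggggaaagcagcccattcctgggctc
The motif occurred in 72 of 13568 promoters of genes on the array (0.531%), in 8 of 24 listed cytokine genes that have an entry, and in 3 of 12 tested ones (IL6, IL32 and LTB). Entries covered 24 of 33 listed members on the array and 12 of 18 tested members, fewer than 80% of each. Both shares are therefore void as comparisons. The windows of CXCL8, CCL20 and TNF held no match.

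Interferon-stimulated genes and antigen presentation genes were mixed, where 17.1% of all genes were higher in TOV-21G and 16.7% lower. Of 22 tested interferon-stimulated genes 9 were higher in TOV-21G and 5 lower, and the higher count was 5 without TOV-21G experiment 1, without TOV-21G experiment 2 or without SK-OV-3 experiment 1. IFITM1, a membrane protein that restricts virus entry, had 11.51 and 11.55 in TOV-21G, against 6.63 and 6.88 in SK-OV-3, 27.4-fold higher on the fitted scale (adjusted p = 2.81e-05), and was detected on 1 of the 2 SK-OV-3 arrays. OAS1, which senses double-stranded RNA, was detected in TOV-21G only at 10.29 and 9.80 (at least 10.2-fold, adjusted p = 1.02e-05). IFI27 was lower at 6.63 and 6.38 in TOV-21G, against 9.10 and 9.57 in SK-OV-3 (difference -2.83, adjusted p = 0.000514, or -1.60 on the authors' values). IFI27 was not detected on every control array, so its difference is on the fitted scale. Of 12 tested genes of class I antigen presentation 3 were higher and 2 lower, and 1 was lower without TOV-21G experiment 2 or without SK-OV-3 experiment 2. The immunoproteasome subunit PSMB9 was higher at 11.54 and 11.31 in TOV-21G, against 8.70 and 8.87 in SK-OV-3 (difference 2.64, adjusted p = 9.46e-05) and the peptide transporter gene TAP1 was higher (difference 1.66, adjusted p = 0.00182). TAP2, which encodes the other chain of that transporter, was lower at 8.24 and 8.09 in TOV-21G, against 9.17 and 9.12 in SK-OV-3 (difference -0.98, adjusted p = 0.00579). A second TAP2 probe, detected on 1 of the 2 SK-OV-3 arrays, gave 0.49 (adjusted p = 0.326 over probes). HLA-F was lower (difference -2.49, adjusted p = 0.0126), a call lost without TOV-21G experiment 2 and without SK-OV-3 experiment 2. HLA-F was detected in SK-OV-3 only, with a bound of at least 3.02-fold lower in TOV-21G.

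Glutathione transferases, which couple glutathione to electrophiles, differed by isoenzyme. Of 14 tested members 7 were higher in TOV-21G and 1 was lower (median 0.81, or 0.59 at the bounds), against 17.1% and 16.7% of all genes. GSTM1 had 12.98 and 12.88 in TOV-21G, against 7.81 and 8.08 in SK-OV-3, 31.7-fold higher (log2 difference 4.99 ± 0.23 SE, adjusted p = 3.72e-06), and another probe gave 1.98. GSTM2 had 12.41 and 12.48 in TOV-21G and undetected signals of 189 and 189 in SK-OV-3 (adjusted p = 2.37e-06). The mu-class genes are close copies, so their probes may share signal. GSTT2 had 11.38 and 11.86 in TOV-21G, against 6.87 and 5.49 in SK-OV-3 (adjusted p = 6.98e-05) and was detected on 1 of the 2 SK-OV-3 arrays. GSTT1 was the lower member, with 10.99 and 11.06 in SK-OV-3 and undetected signals of 125 and 117 in TOV-21G (at least 23.1-fold lower, adjusted p = 1.81e-06).

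Genes activated by NRF2, the transcription factor of the oxidative stress response had 6 of 17 tested members lower in TOV-21G and none higher (median -0.20). The share that passed, 35.3%, lay near the 33.8% of all genes that passed in either direction. In the lower direction alone 16.7% of all genes passed, and the list was not tested against that share. AKR1C3, an aldo-keto reductase that acts on steroids and prostaglandins, had 8.81 and 8.13 in TOV-21G, against 12.33 and 12.38 in SK-OV-3, 14.8-fold lower (adjusted p = 0.000916). Its close relative AKR1C2 had 8.10 and 6.09 in TOV-21G, against 12.71 and 12.64 in SK-OV-3 (adjusted p = 0.0015) and was detected on 1 of the 2 TOV-21G arrays. The cystine transporter SLC7A11 had 7.66 and 7.85 in TOV-21G, against 10.51 and 10.27 in SK-OV-3 (difference -2.63 ± 0.36, adjusted p = 0.00101) and the carbonyl reductase CBR1 differed by -1.34 (adjusted p = 0.00341). Of the aldehyde dehydrogenases, ALDH1A3 was higher at 11.86 and 10.59 in TOV-21G, against 7.93 and 6.87 in SK-OV-3 (difference 3.83, adjusted p = 0.00341) and ALDH3A1 was detected in SK-OV-3 only (at least 14.3-fold lower, adjusted p = 0.000197).

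Of the metallothioneins, small metal-binding proteins, 3 of 5 tested genes were higher in TOV-21G and none was lower, against 17.1% and 16.7% of all genes. MT1E had 13.02 and 13.07 in TOV-21G and undetected signals of 156 and 144 in SK-OV-3 (adjusted p = 9.98e-07). MT1F (at least 10.9-fold, adjusted p = 0.000114) and MT1G (at least 5.51-fold, adjusted p = 0.00155) were likewise detected in TOV-21G only. MT2A, the most widely expressed member, lay at the top of the arrays' range, with 16.05 and 15.94 in TOV-21G, against 16.07 and 15.94 in SK-OV-3, so its levels could not be compared.

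Growth factor pathways held a few large differences each. The list counts stand beside 17.1% higher and 16.7% lower over all genes and were not tested against those shares. Of 8 tested genes of the insulin-like growth factor system 4 were higher in TOV-21G and 2 were lower, the lower count being 1 without either TOV-21G array or without SK-OV-3 experiment 2. IGFBP3 had 6.82 and 6.54 in TOV-21G, against 10.26 and 9.98 in SK-OV-3 (difference -3.44 ± 0.26, adjusted p = 3.79e-05), lower where IGFBP2 and IGFBP4 were higher, and its difference was -2.20 on the values normalised by the authors. Of 18 tested genes of the TGF-beta and BMP pathways 5 were higher and 3 were lower. ID3, an inhibitor of bHLH factors, had 15.61 and 15.38 in TOV-21G, against 12.32 and 12.21 in SK-OV-3, 9.38-fold higher (adjusted p = 3.11e-05), the signal transducer SMAD3 was higher (difference 1.94, adjusted p = 0.000759) and the ligand BMP2 was lower (difference -2.05, adjusted p = 0.00156). Of 20 tested genes of the Wnt pathway 4 were higher and 5 lower (median 0.04), and leaving out any 1 control array left 1 or 2 higher. The receptor FZD2 had 8.86 and 8.17 in TOV-21G, against 11.90 and 12.03 in SK-OV-3 (difference -3.45, adjusted p = 5.19e-05), the ligand WNT7A differed by -2.59 (adjusted p = 0.00165) and the secreted antagonist SFRP1 by -2.98 (adjusted p = 0.00308), all lower in TOV-21G. CTNNB1, the beta-catenin gene, chosen after its values were seen, was among the higher members (difference 1.46, adjusted p = 0.0211).

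SPRY1, a feedback inhibitor of ERK signalling, was higher at 12.74 and 13.06 in TOV-21G, against 9.94 and 10.18 in SK-OV-3 (difference 2.84, adjusted p = 4.12e-05), and so was the phosphofructokinase of muscle, PFKM, at 11.51 and 11.44 in TOV-21G, against 7.51 and 7.86 in SK-OV-3 (difference 3.79, adjusted p = 2.02e-05). SMARCC1, a core subunit of the SWI/SNF chromatin remodelling complex, was detected in TOV-21G only at 10.05 and 9.52, with undetected signals of 177 and 139.8 in SK-OV-3 (at least 8.59-fold, adjusted p = 4.37e-05). Of 13 tested subunits 2 were higher and 4 were lower (median -0.52), against 17.1% and 16.7% of all genes. The lower ones were DPF1 (difference -1.63, adjusted p = 0.00232), ARID1A (-0.83, 0.0216), SMARCD1 (-0.92, 0.0259) and SMARCC2 (-0.65, 0.0325), and 1 was lower without either TOV-21G array or without SK-OV-3 experiment 2. The second higher subunit, SMARCD3, lost its call without TOV-21G experiment 2 and without either SK-OV-3 array. The cyclin CCND2 was also detected in TOV-21G only at 10.58 and 9.93, with undetected signals of 137 and 149 in SK-OV-3 (at least 11.9-fold, adjusted p = 1.83e-05).

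Lists of housekeeping and proliferation genes had few calls on the control arrays, where 33.8% of all tested genes passed, and the share was not tested against that of other genes. Of 61 tested cytoplasmic ribosomal protein genes 1 passed the test, RPLP1, and that call was lost without TOV-21G experiment 2 and without SK-OV-3 experiment 1. Of 27 tested genes of mitosis none was higher and 2 were lower (median -0.14), and of 39 of DNA replication 2 were higher and 3 lower (median -0.21). Leaving out single arrays moved the number of lower mitosis genes between 0 and 5: it was 0 without TOV-21G experiment 2 or SK-OV-3 experiment 2, 1 without SK-OV-3 experiment 1 or either CSE1L siRNA array of SK-OV-3, and 4 and 5 without CSE1L siRNA experiments 1 and 2 of TOV-21G. Replication genes lower were 1 without either TOV-21G array or SK-OV-3 experiment 1 and 5 without either CSE1L siRNA array of TOV-21G, and 1 was higher without either TOV-21G array or SK-OV-3 experiment 2. On the CSE1L siRNA arrays, where 39.8% of all genes passed, the mitosis list had 23 of 27 members lower and none higher (median -1.80), and the replication list 3 higher and 28 lower of 39 (median -1.29). None of the 6 tested mismatch repair genes passed the test in the fit over all arrays with the probe that stood for it. Another MLH3 probe, detected on all 4 control arrays, gave -1.10 (adjusted p = 0.00518 over probes). Nuclear transport receptors, the family of CSE1L, had 4 of 24 tested members lower, the same share as the 16.7% of all genes, and none higher. Among them were IPO8 at 10.77 and 10.97 in TOV-21G, against 12.42 and 12.83 in SK-OV-3 (difference -1.76 ± 0.22, adjusted p = 0.000591) and IPO5 (difference -1.03, adjusted p = 0.00786).

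**Figure D4:**
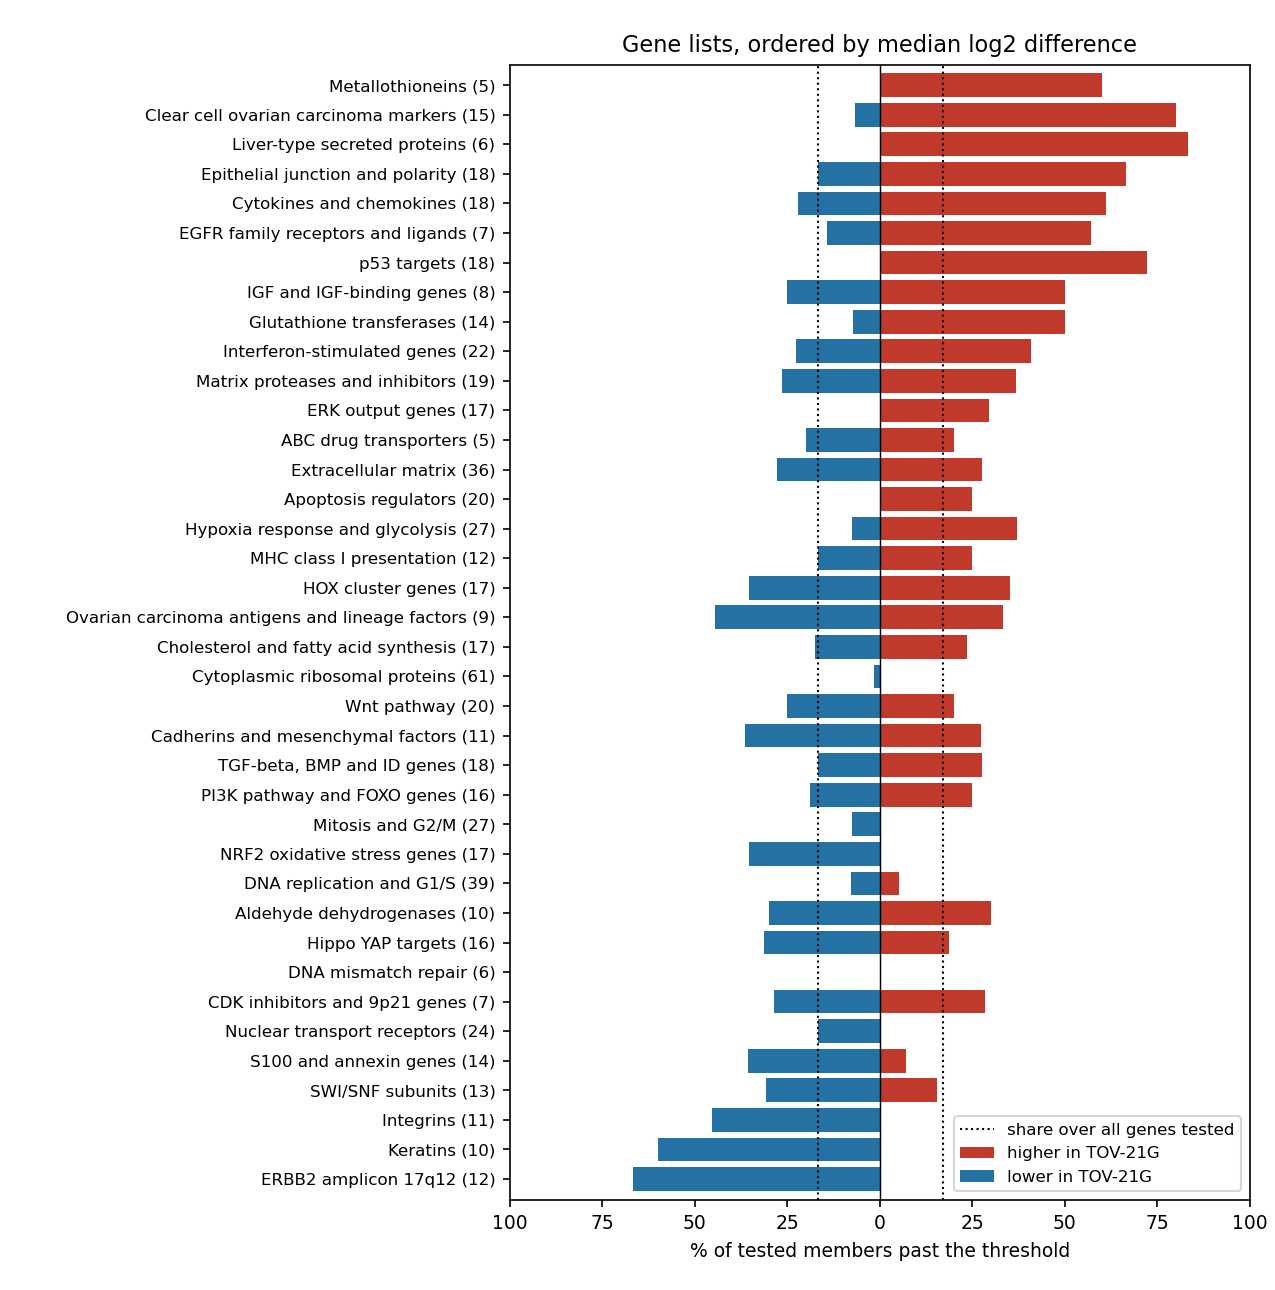
Share of each list's tested members (in %, number tested in brackets) that passed an adjusted p of 0.05, drawn to the right in red where higher in TOV-21G and to the left in blue where lower, for lists ordered by their median log2 difference, with dotted lines at the shares over all 9377 genes (17.1% higher, 16.7% lower). Metallothioneins, clear cell carcinoma markers and liver-type secreted proteins stand at the top, and integrins, keratins and the 17q12 genes at the bottom.

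Position along the chromosomes was not used by the comparison of the lines, and 2 chromosomes stood apart from the rest. Chromosome 7 had a median log2 difference of 0.61 over 369 tested genes, with 132 higher in TOV-21G and 22 lower. Chromosome 10 had a median of 0.47 over 334 genes, with 123 higher and 36 lower. The medians of the other chromosomes lay between -0.29 and 0.06. Over all genes tested 17.1% were higher in TOV-21G and 16.7% lower. On the CSE1L siRNA arrays the medians were 0.57 for chromosome 7 and 0.54 for chromosome 10. With every named gene in place of the detected ones they were 0.14 and 0.13, the lowest values under any alternative. The number of gene copies was not measured here.

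The same view was taken over windows of 15 neighbouring tested genes. The median of 8046 such windows was -0.08, with a 5th percentile of -0.59 and a 95th of 0.72. Counts in the highest and lowest windows stand beside 17.1% higher and 16.7% lower over all genes tested. The highest window ran from PDLIM1 to PI4K2A on chromosome 10, with a median of 1.57, 12 genes higher in TOV-21G and none lower. In it PDLIM1, a cytoskeletal adaptor, differed by 2.81 (adjusted p = 7.08e-05), the ribosome assembly gene RRP12 by 1.79 (adjusted p = 0.000748) and UBTD1 by 2.26 (adjusted p = 0.000211). Windows from ZFYVE27 to BLOC1S2, from PPRC1 to CNNM2 and from PAPSS2 to MYOF on the same chromosome had medians of 1.54, 1.46 and 1.40, each with 10 genes higher and none lower. The second of these holds NFKB2, a subunit of NF-kB (difference 2.27, adjusted p = 0.000161, or 1.5 on the values normalised by the authors), and the first holds CHUK, the kinase IKK-alpha (difference 3.31, adjusted p = 0.000397). CHUK was not detected on every control array, so its difference is on the fitted scale. ACTA2 lies in the third, between STAMBPL1 and LIPA among tested genes.

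A window on chromosome 22 from MYH9 to SH3BP1 had a median of 1.40, with 8 genes higher and 3 lower.

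The lowest window was the one around ERBB2, from RPL19 to THRA, with a median of -1.92, 10 genes lower in TOV-21G and none higher. Next came the HOXB region from CDK5RAP3 to GNGT2 on the same chromosome (median -1.74, 10 lower and none higher). The zinc finger cluster of chromosome 19 from ZNF773 to ZSCAN18 had a median of -1.44 with 9 lower and none higher. There ZSCAN18 was 33.9-fold lower at 7.55 and 8.81 in TOV-21G, against 13.45 and 13.07 in SK-OV-3 (adjusted p = 0.000644), and ZNF135 (at least 13.6-fold lower), ZIK1 (at least 6.95-fold), ZNF671 (at least 4.31-fold) and ZNF418 (at least 3.40-fold) were detected in SK-OV-3 only. A window at the end of chromosome 17, from ACTG1 to ASPSCR1, had 12 genes lower and none higher (median -1.19), and one on chromosome 8, from TNKS to MTUS1, had 8 lower and 1 higher (median -1.31).

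**Figure D5:**
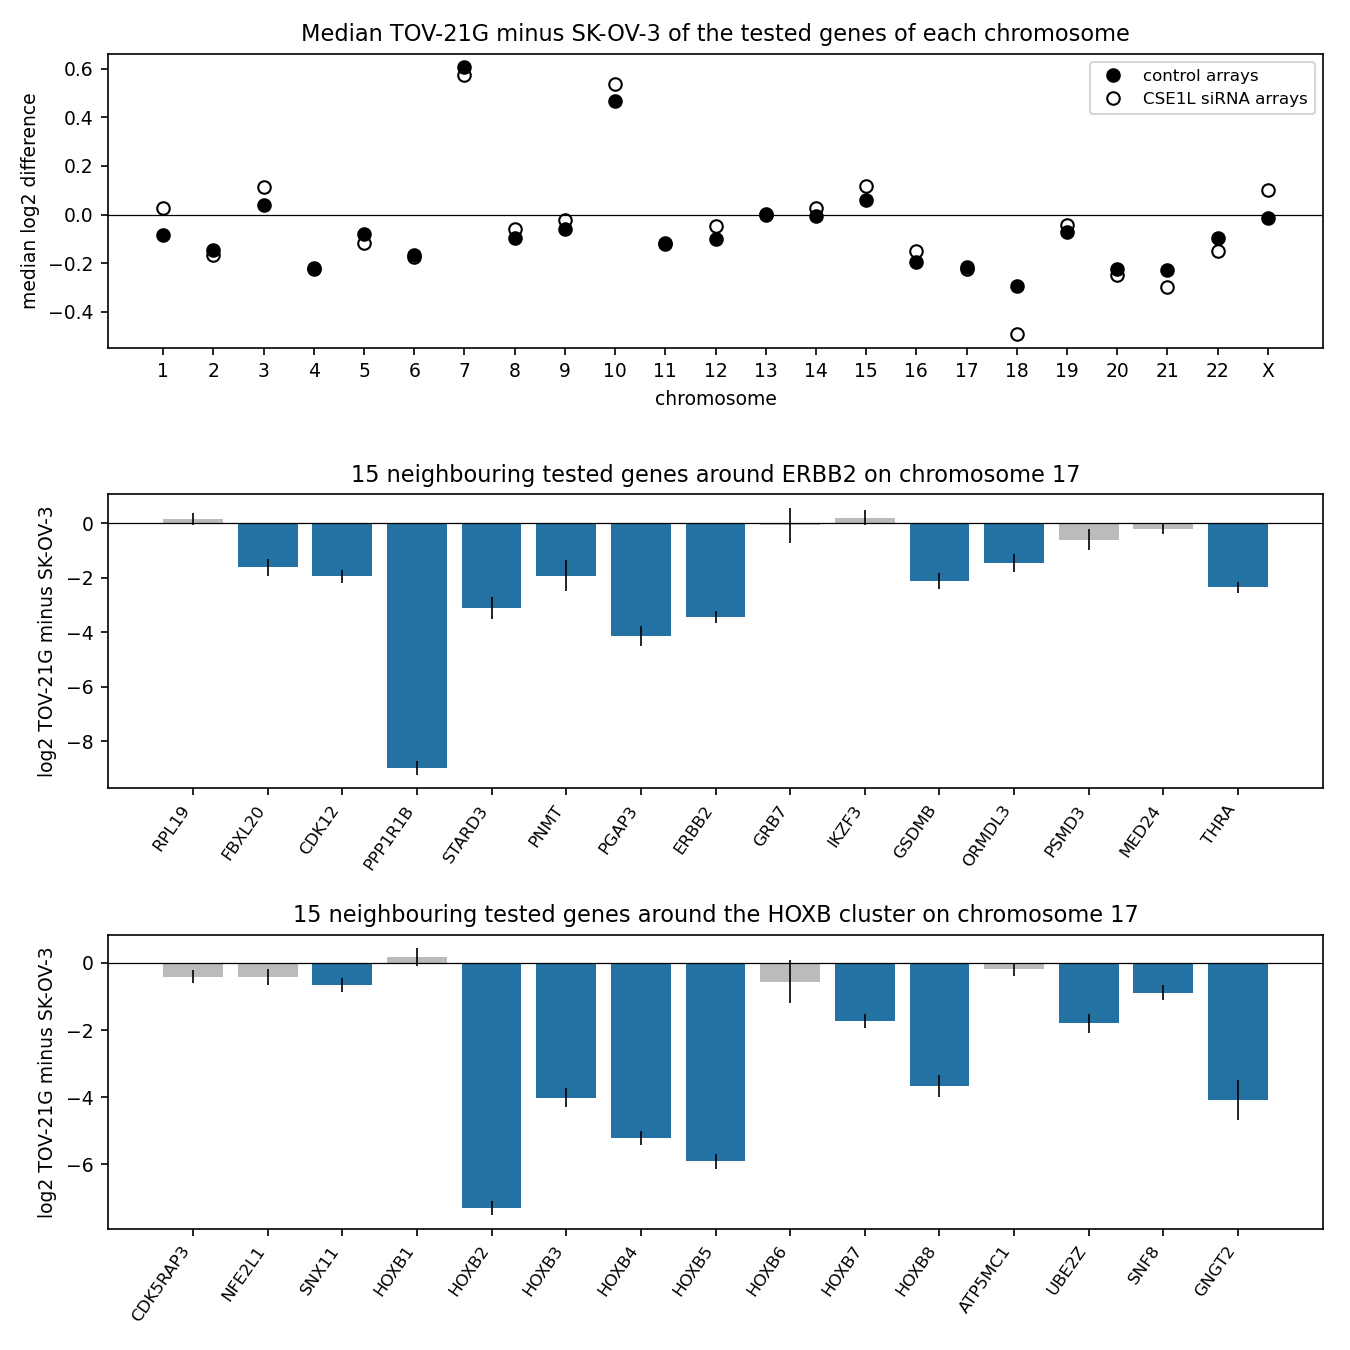
Top: median log2 difference, TOV-21G minus SK-OV-3, of the tested genes of each chromosome on the control arrays (filled) and on the CSE1L siRNA arrays (open), with chromosomes 7 and 10 above all others. Middle and bottom: log2 difference of each gene, in chromosome order with equal spacing, for the windows around ERBB2 and the HOXB cluster (bars, with lines of ± 1 SE, blue where lower in TOV-21G at an adjusted p of 0.05 and grey where the test was not passed), where the fitted size of a bar for a gene undetected in TOV-21G depends on the background offset.

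The line difference was also read on the arrays given CSE1L siRNA, which share no array with the control groups, though both contrasts take their spread from the same fit. Same-numbered control and silenced arrays of a line deviated together across probes, with a correlation of 0.561 in TOV-21G and 0.1255 in SK-OV-3, so the silenced arrays are not an independent reading. There 3732 of 9377 genes passed the test (39.8%). Of the 3166 genes that passed on the control arrays, 3098 had the same sign on the silenced arrays, 68 had the opposite sign, and 2495 (78.8%) passed there in the same direction. All 15 genes furthest above and all 15 furthest below SK-OV-3 among those detected in both lines, and all 30 one-line genes with the largest bounds, passed in the same direction. ERBB2 differed by -3.42 on the control arrays and by -4.06 on the silenced arrays, CDKN1A by 5.68 and 5.57, CXCL8 by 4.33 and 2.83, and JAK1 by -3.93 and -3.73. The test of the change in line difference with silencing, an interaction term in the same limma fit, passed the threshold for 0 of 9377 genes, with 948 at an unadjusted p below 0.05.

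Promoter composition was described for the detection classes, since CpG-rich promoters are typical of widely expressed genes. The share of promoters with an observed over expected CpG ratio of at least 0.6 was 61.6% of 391 genes detected in TOV-21G only and 65.4% of 283 genes detected in SK-OV-3 only. It was 84.8% of genes detected on all 4 control arrays, 48.5% of those detected on none and 65.4% of all named genes on the array. Only 71.6% of the TOV-21G-only genes and 78.0% of the SK-OV-3-only genes had a promoter entry, under the 80% needed, so the check is void as a comparison of the classes.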

How the data were processed

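Control TOV-21G and control SK-OV-3 RNA, 2 arrays each, was measured on Illumina bead arrays. The authors deposited, per the file headers, an average signal intensity and a detection p-value for each of 24531 probes, as non-normalised values and as values normalised by the authors, whose method is not given in the sources used here. BeadStudio 2 is named in the submitters' processing notes. Groups followed the labels. The non-normalised intensity was corrected by limma 3.58.1 (R 4.3.3) with normexp on all spots and an offset of 16, quantile-normalised over the 8 arrays and taken to log2.

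Of 24531 probes, 21838 have 1 gene symbol in GEO's platform annotation and 2693 none. Probes detected (p below 0.01) on at least 2 arrays entered, and the probe with the highest mean stood for a gene. A linear model with 4 group means and moderated variances, adjusted over 9377 genes by Benjamini-Hochberg, gave TOV-21G minus SK-OV-3 (4 residual degrees of freedom). The model treated the arrays as independent, although same-numbered control and silenced arrays of TOV-21G deviated together (correlation 0.561). No pairing within a line was fitted, so the p-values may be too small. Precision is limited by the number of arrays. Lower bounds used, per array, the higher of the lowest detected signal and the probe's own. Gene order and promoters came from RefSeq's GRCh38.p14 tables. The fit was tested on simulated data.

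Members and lists were chosen with earlier results of these data known. Named genes were the 15 furthest apart each way on all 4 arrays, the 15 largest bounds per line, list anchors and up to 5 further members by p, genes of the outermost windows, and CSE1L. Same-numbered control arrays of the 2 lines deviated with a correlation of -0.137, and the main fit did not pair them. The labels do not say whether an experiment number is shared between the lines, and 2 arrays a group cannot settle it. Same-numbered control and silenced arrays of one line gave 0.561 (TOV-21G) and 0.1255 (SK-OV-3). Alternatives were a replicate block, median scaling, no background correction, an offset of 50, the authors' values, other detection filters and probe choices, a trend with robust variances, only the control arrays, the silenced arrays, and each array left out. Some items are not reported here. Python 3.11.15, pandas 2.3.3 and matplotlib 3.10.9 were used for the summaries.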

Additional observations from a re-analysis of the deposited data

How the results depend on the processing

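Of 430 genes named by rule, 323 passed the test. Of these, 255 passed under every alternative on the control arrays in which they were tested, and 68 did not under at least 1. Genes not detected on every control array were absent from the filter that required it. On the silenced arrays 27 of the 323 kept their direction but no longer passed. Among genes that passed in at least 1 of the settings compared, the direction turned for 6: GRB7 (-1.26 without SK-OV-3 experiment 1 and 1.12 without experiment 2), ETV5 (0.69), E2F2 (-1.50), TNFRSF1A (-0.30) and IFIT3 (-0.23) on the silenced arrays, and RPLP1 (0.61 with the probe of smallest mean detection p). The cause was not tested. Of all tested genes, 1999 passed with detection required on all 4 control arrays (948 higher), a filter that leaves out genes of one line by construction, and 1874 passed an adjusted p of 0.01 (1010 higher and 864 lower). With each array left out in turn, 2141 to 3247 genes passed, 1085 to 1618 higher and 1031 to 1629 lower. Median scaling gave 2775 (53.8% higher, against 50.6%), no background correction 3375, the authors' values 3015, no detection filter 3064, and the 4 control arrays alone 2882.

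A replicate block by experiment number gave 3059 calls. A crossed pairing of the numbers, added after seeing the data because of their negative correlation, gave 3652. Genes of one line only numbered 249 in TOV-21G and 183 in SK-OV-3 where undetected meant a detection p of 0.05 or more, 289 and 183 where detected meant below 0.001, and 358 and 265 over all arrays of each line. The highest 9-gene window, from CRB3 to ADGRE1 on chromosome 19, had a median of 2.35. The lowest 9-gene window, from SNX11 to HOXB8 on chromosome 17, had -3.66. The lowest 25-gene window, which holds ERBB2, had -1.35, so the ranking of windows changed with their size. At a CpG ratio of 0.75 the shares were 44.5%, 47.7%, 67.9% and 35.2% for genes of TOV-21G only, SK-OV-3 only, all 4 arrays and none. Arrays report signal only above about 219 to 231 units, so genes under it in both lines were not compared.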

Other observations

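The 1 probe of UQCRH was undetected on both SK-OV-3 arrays. Of the other complex III subunits tested (chosen after the values of UQCRH were seen), UQCRQ had a log2 difference of -0.09 (limma adjusted p = 0.834), UQCRC1 of 0.47 (0.122), UQCR10 of -0.23 (0.458), UQCR11 of -1.05 (0.0572) and CYC1 of 0.19 (0.626). None of these passed the test. COX7B2, a testis-type subunit of cytochrome oxidase also chosen after its values were seen, had log2 intensities of 5.23 and 4.71 in TOV-21G, against 11.19 and 11.70 in SK-OV-3 (adjusted p = 3.00e-06), whereas COX7C and COX4I1 differed by 0.15 (0.590) and -0.01 (0.974).

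JAK1 was lower in TOV-21G while another kinase of its family, TYK2, gave a difference of 0.42 (adjusted p = 0.176) and STAT3, a substrate of these kinases, gave 0.07 (0.826). TYK2 and STAT3 were looked up after the values of JAK1 were seen.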
